A study of Mus musculus with 8 samples.

Results

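ER-associated degradation (ERAD) is the pathway by which a cell clears misfolded proteins from the endoplasmic reticulum (ER), the compartment where secreted proteins such as antibodies fold. In the lumen, mannosidases trim the sugar of a glycoprotein that has failed to fold and lectins read the trimmed sugar. In the membrane, ubiquitin ligases with their adaptors and channel proteins move the protein across and mark it with ubiquitin. In the cytosol, the ATPase encoded by Vcp pulls it out and shuttle factors pass it to the proteasome. The pathway is best known in antibody-secreting cells for keeping pace with the folding load, and many of its genes respond to the unfolded protein response (UPR), the ER stress programme run by the factors XBP1, ATF6 and ATF4.

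The 34 genes described here were chosen by name as ERAD machinery, from the 24413 gene symbols in each deposited file. They were chosen with earlier results of these data known. The files list 33 of them under the chosen name, and Hm13 is listed as H13, the symbol for which RefSeq gives Hm13 as a synonym. By their main role 6 genes were placed in recognition, 19 in the membrane ligase complexes and 9 in cytosolic extraction. All 34 passed the filter on low counts and stood among the 9904 genes tested.

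Transcripts were counted in 8 libraries of plasmablasts from mice, cells that activated B cells turn into and that secrete antibody while still dividing. Both groups were of strain C57BL/6J and carried floxed Jagn1 alleles; their splenic B220+ B cells were grown for 4 days with lipopolysaccharide (LPS, 25 µg/ml), a bacterial product that activates B cells, and sorted as CD22-CD138+ cells. In the 4 knockout libraries (genotype Jagn1fl/fl Mb1Cre+) the Cre recombinase is expressed from the B cell gene Cd79a, and in the 4 control libraries (genotype Jagn1fl/fl) no Cre is listed, so loss of Jagn1 and presence of Cre cannot be told apart. The labels give 4 mice per genotype, and no age is stated in them. The comparison asks which transcripts differ in these cells once Jagn1, the gene of an ER membrane protein, is deleted.

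The libraries held 7162089 to 8262474 counts in the knockout and 5882912 to 10066661 in the control. Values are given as CPM, the counts scaled to a common library size after TMM normalization and listed in the order of the replicates, and the kit reads a tag at the 3′ end of each transcript, so they were not divided by gene length. A count of 0 allowed up to 0.363 to 0.419 CPM in the knockout and 0.298 to 0.510 CPM in the control at a floor of 3 counts. This floor is for counting error only and was scaled by library totals alone, without the TMM factors. Jagn1 was listed at 2, 1, 1 and 1 counts in the 4 knockout libraries, against 19, 35, 16 and 99 counts in the 4 control libraries, as the labels imply, although the deleted exons are not given. Control replicates 1 and 4 stood apart, deviating from the control mean by 0.594 and 0.581 (root mean square of log2 CPM over all genes tested), while the other libraries of both groups deviated from theirs by 0.324 to 0.432. The summed level of 7 plasmablast markers was 4685 to 7081 CPM in the knockout and 7230 to 11996 CPM in the control. Among them Jchain, Tnfrsf17 and Slamf7 fell, as did Sdc1, which encodes the sorting marker CD138 and averaged 19.6 ± 2.72 CPM in the knockout and 41.2 ± 10.8 CPM in the control (SD, n = 4 each; edgeR adjusted p = 0.00635). Jchain alone made up most of the sum, averaging 4064.5 CPM in the knockout and 7517 CPM in the control. Prdm1, Xbp1 and Irf4 did not pass, with log2 fold changes of -0.29, -0.39 and -0.03 (edgeR adjusted p = 0.327, 0.643 and 0.959). Cd79a, whose locus drives the Cre, averaged 148 ± 23.5 CPM in the knockout and 304 ± 77.6 CPM in the control (log2 fold change -1.04 ± 0.19, edgeR adjusted p = 0.00313). The sum was 563 to 688 and 605 to 869 CPM for 5 B cell markers, 10.4 to 13.6 and 13.5 to 20.9 CPM for 7 T cell markers and 0.940 to 3.16 and 1.07 to 2.53 CPM for 7 myeloid markers and at most 0.120 and 0.682 CPM for 3 natural killer cell markers, in the knockout and in the control. Lyz2, Cd14, S100a8 and S100a9 and all 5 erythroid markers were at 0 counts in every library. Fewer cells of a type and less RNA per cell cannot be told apart in such bulk samples, and the part of these differences in the results on ERAD genes was not tested.

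The UPR acts on many ERAD genes through response elements in their promoters, so RefSeq promoter windows (GRCm38.p6, 250 bases before to 50 after the start) were searched for the known elements. A window was found for 27 of the 34 genes. Both strands were searched for the ER stress response element ERSE (CCAAT, then 9 bases of any kind, then CCACG), its variant ERSE-II (ATTGG, then 1 base of any kind, then CCACG), the UPRE core (TGACGTGG) and the core of the C/EBP-ATF element CARE that ATF4 binds (TGATGNAA). No 2 matches in these windows overlapped. ERSE was found in Derl3 and Syvn1, which is 7.41% of the ERAD genes with a window against 0.137% of 27018 genes with a window. ERSE-II was found in Herpud1 alone among them (3.7% against 0.0444%), the UPRE core in Ube2j1 and Vcp (7.41% against 0.714%) and the CARE core in Herpud1 and Faf2 (7.41% against 4.51%). A match is a description of these letters and not a measured binding site. The windows of Herpud1, Syvn1 and Derl3 are shown because they hold an ERSE or ERSE-II match, and that of Sel1l because the gene rose in the knockout and its window held none of these letters. Of the 5 genes with a window that rose in the knockout, Herpud1 held a match, while Sel1l, Os9, Rhbdd1 and Ubxn4 held none. Matches are in capitals, 5′ to 3′ on the strand of the gene.
Herpud1 (chr8:94386179-94386478, plus strand): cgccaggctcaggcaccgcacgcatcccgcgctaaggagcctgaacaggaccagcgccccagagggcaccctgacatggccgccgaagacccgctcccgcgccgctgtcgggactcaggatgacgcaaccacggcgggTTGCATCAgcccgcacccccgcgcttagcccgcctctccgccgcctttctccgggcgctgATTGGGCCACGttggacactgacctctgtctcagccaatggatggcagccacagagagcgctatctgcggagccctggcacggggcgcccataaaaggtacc
Syvn1 (chr19:6046326-6046625, plus strand): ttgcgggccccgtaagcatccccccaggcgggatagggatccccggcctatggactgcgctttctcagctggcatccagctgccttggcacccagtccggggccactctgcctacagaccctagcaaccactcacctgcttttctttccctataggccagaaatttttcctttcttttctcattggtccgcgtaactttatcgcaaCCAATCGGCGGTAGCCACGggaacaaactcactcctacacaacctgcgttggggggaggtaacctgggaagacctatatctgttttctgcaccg
Derl3 (chr10:75893148-75893447, plus strand): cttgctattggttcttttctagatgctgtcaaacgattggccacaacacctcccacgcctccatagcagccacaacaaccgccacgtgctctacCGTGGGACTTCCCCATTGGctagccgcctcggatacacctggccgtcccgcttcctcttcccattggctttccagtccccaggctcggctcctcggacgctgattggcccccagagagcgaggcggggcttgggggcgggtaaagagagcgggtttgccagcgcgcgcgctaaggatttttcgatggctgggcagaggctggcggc
Sel1l (chr12:91849108-91849407, minus strand): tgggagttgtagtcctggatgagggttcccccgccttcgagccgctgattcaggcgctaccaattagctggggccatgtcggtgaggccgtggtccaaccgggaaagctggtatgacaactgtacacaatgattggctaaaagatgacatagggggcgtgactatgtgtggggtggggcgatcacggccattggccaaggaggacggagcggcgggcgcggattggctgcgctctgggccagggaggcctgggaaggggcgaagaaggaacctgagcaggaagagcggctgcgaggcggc
In the Herpud1 window the CARE core stands at bases 139 to 146, as the reverse complement, and ERSE-II at bases 199 to 209. In Syvn1 the ERSE stands at bases 207 to 225, and in Derl3 it stands at bases 95 to 113 as the reverse complement.

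A small set of ERAD genes was higher in the knockout, and none passed the test for a fall. Rhbdd1, Ubxn4, Sel1l, Os9, Herpud1 and Derl1 rose, by 2.32, 1.81, 1.67, 1.63, 1.56 and 1.49 fold. These 6 are 17.6% of the 34 genes, where 2.54% of all genes tested passed the same test upward (edgeR quasi-likelihood test, Benjamini-Hochberg adjusted p under 0.05). As the genes were chosen with earlier results known, such shares describe them and do not test for an excess. The median control level was 85.6 CPM over the 34 genes and 19.0 CPM over all genes tested. The part of this difference in the shares was not tested. None of the 34 fell, against 3.19% of all genes tested; at an unadjusted p under 0.05 the count of lower members was also 0, where 9.72% of all genes were lower and 8.3% higher. DESeq2 and limma-voom likewise called 0 of the 34 lower, where they called 4.25% and 5.89% of all genes they tested lower. In either direction 5.74% of all genes tested passed. With limma-voom 7 of the 34 were higher, against 4.76% of all genes. The fitted log2 fold change was above 0 in 25 of the 34, or 73.5%, against 48.7% of all genes tested, with a median of 0.21 against -0.01. In 7 of the 34 all knockout libraries lay above all control libraries, which held for 6.45% of all genes tested, and in none did all lie below, which held for 6.64% (13.1% in either direction). The 7 are the called 6 and Hm13. A gene that did not pass is not shown to be unchanged, since the test recovered 9.88% of simulated 1.5-fold changes. That rate is for genes drawn from all those tested above a low level, and it was not measured for the 34 genes.

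**Figure D1:**
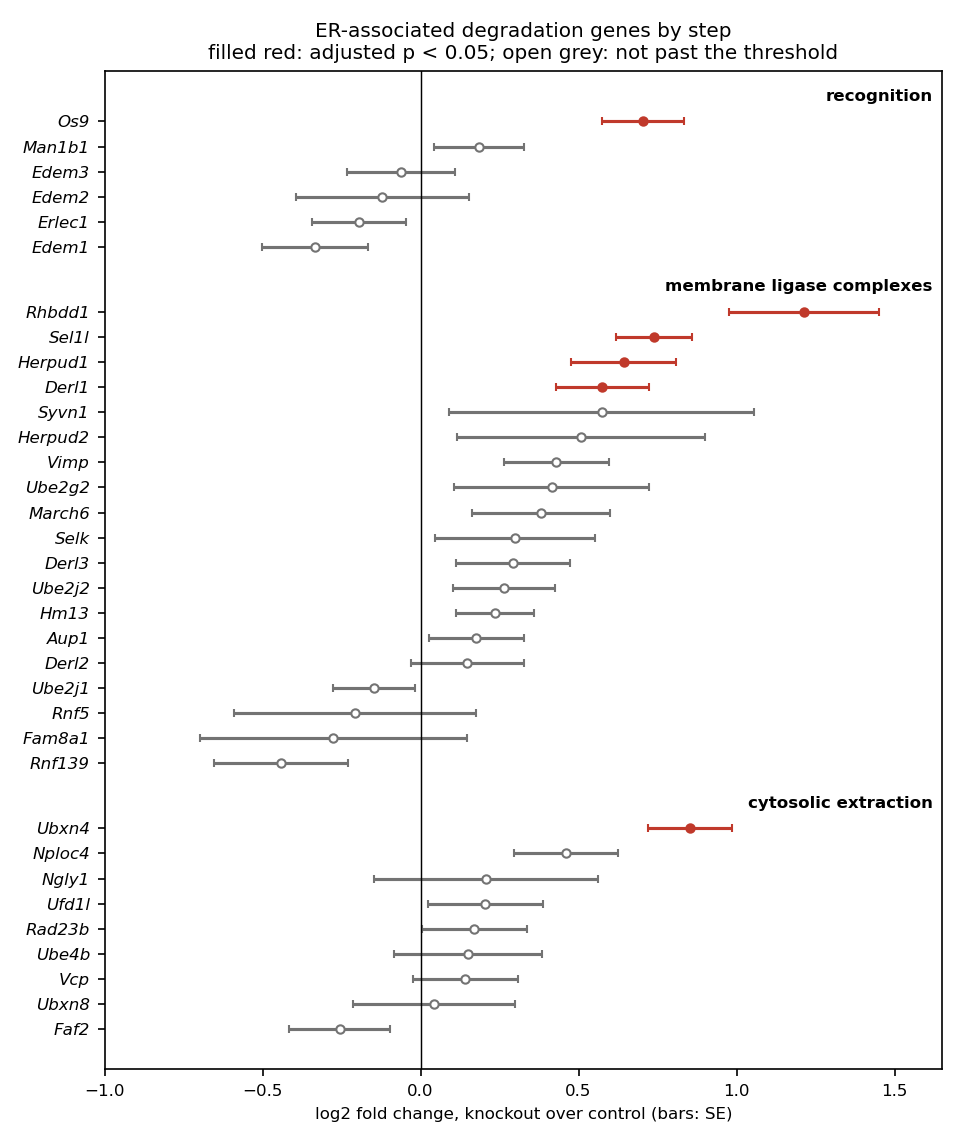
Fitted log2 fold change of each of the 34 genes, knockout over control, by step; points are estimates, bars are the standard error, and filled red points passed the adjusted p threshold. The called genes are Os9 in recognition, Rhbdd1, Sel1l, Herpud1 and Derl1 in the membrane complexes and Ubxn4 in extraction, with estimates of 0.58 to 1.21, while all other estimates lie between -0.44 and 0.57.

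The steps differed in their values. In recognition 1 of 6 genes rose, 2 of 6 had a fitted value above 0 and the median log2 fold change was -0.09. In the membrane ligase complexes 4 of 19 rose, 15 of 19 were above 0 and the median was 0.30. In cytosolic extraction 1 of 9 rose, 8 of 9 were above 0 and the median was 0.17. Over all genes tested 2.54% rose, 48.7% were above 0 and the median was -0.01. The difference between the steps was not tested, since the genes of a step are not replicates.

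Recognition held a gene that rose beside relatives that did not pass. Os9, a lectin that reads trimmed mannose chains and hands the protein to the SEL1L adaptor, gave 518, 588, 633 and 601 CPM in the 4 knockout libraries, against 335, 395, 345 and 362 CPM in the 4 control libraries. Every knockout library lay above every control library, and the spread within either group was small. It rose by 0.70 ± 0.13 on the log2 scale (SE, edgeR adjusted p = 0.00395). Os9 spans bases 127095650 to 127121131 of chromosome 10 (minus strand) in GRCm38 (GENCODE M21), and no exon of it overlaps another annotated gene.

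Erlec1 encodes the other lectin of this kind, also bound by SEL1L. It gave 66.1, 59.1, 57.2 and 51.7 CPM in the 4 knockout libraries, against 70.9, 66.2, 63 and 67.7 CPM in the 4 control libraries. The groups overlapped, with a log2 fold change of -0.19 ± 0.15 (adjusted p = 0.55).

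The counts of the lectin genes were also set against each other inside each library, with 2 counts added to each, a measure that needs no library scaling. The log2 ratio of Os9 to Erlec1 was 2.96, 3.31, 3.46 and 3.53 in the 4 knockout libraries, against 2.24, 2.57, 2.45 and 2.42 in the 4 control libraries. All 4 knockout libraries lay above all 4 control libraries, with 7.81 to 11.6 Os9 counts per Erlec1 count in the knockout against 4.71 to 5.94 in the control. The mean difference was 0.90 on the log2 scale (exact two-sided permutation p = 0.0286, the smallest that 4 against 4 libraries allow), and it did not pass the Benjamini-Hochberg adjustment over the 4 partner ratios compared (adjusted p = 0.114). Os9 was among the genes known to rise when this pair was chosen.

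The mannosidase genes did not pass. Edem1, Edem2 and Edem3 encode ER proteins that trim mannose from misfolded glycoproteins and speed their degradation, and Man1b1 encodes another mannosidase of the pathway. Edem1 gave 412, 401, 495 and 412 CPM in the 4 knockout libraries, against 381, 526, 573 and 687 CPM in the 4 control libraries. Control replicates 2 to 4 lay above all knockout libraries, while control replicate 1 lay below them, and the log2 fold change was -0.33 ± 0.17 (adjusted p = 0.317). Without control replicate 1 it was -0.47 and passed (adjusted p = 0.0352).

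Edem2 ranged over 33.7 to 53.7 CPM in the knockout and 23.3 to 75.5 CPM in the control, with control replicate 1 lowest and control replicate 4 highest of all. Edem3 ranged over 109 to 159.9 CPM in the knockout and 114 to 177 CPM in the control, and Man1b1 over 700.2 to 752 CPM in the knockout and 525 to 759 CPM in the control. Their log2 fold changes of -0.12, -0.06 and 0.19 lay within 1.5 standard errors of 0. Man1b1 shares 234 exon bases with a long non-coding RNA gene on the opposite strand, and the labels do not say whether counting used strand.

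In the membrane, the central ligase complex joins SYVN1 (also called HRD1), the RING ubiquitin ligase, to SEL1L, the adaptor that receives substrates from the lectins. Sel1l gave 1308, 1383, 1225 and 1346 CPM in the 4 knockout libraries, against 765, 804, 809 and 777 CPM in the 4 control libraries. The groups were far apart for their spread, which was 5.15% of the mean in the knockout and 2.64% in the control. The fitted change was 0.74 ± 0.12 on the log2 scale (SE, edgeR adjusted p = 0.00155). The gene spans bases 91806043 to 91849157 of chromosome 12 (minus strand).

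Syvn1 gave 84.7, 121, 113 and 119 CPM in the 4 knockout libraries, against 20.2, 44.5, 62.3 and 166 CPM in the 4 control libraries. The knockout libraries lay close together, while the control libraries spanned the widest relative range of any of the 34 genes, with a coefficient of variation of 87.5% against 15.4% in the knockout. The log2 fold change of 0.57 ± 0.48 did not pass (adjusted p = 0.605). The call depended on control replicate 4 and on the tool. Without that library the log2 fold change was 1.36 (adjusted p = 0.00435), without control replicates 1 and 4 it was 1.03 (0.000436), and limma-voom with all libraries put it at 1.01 (0.00922). Syvn1 shares 91 exon bases with Mrpl49 on the opposite strand.

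The log2 ratio of Sel1l to Syvn1 inside each library was 3.94, 3.52, 3.44 and 3.49 in the 4 knockout libraries, against 5.22, 4.17, 3.69 and 2.23 in the 4 control libraries. The knockout libraries held 10.9 to 15.4 Sel1l counts per Syvn1 count, within the 4.69 to 37.3 of the control libraries. The mean difference of -0.23 did not pass (exact two-sided permutation p = 0.657, adjusted over the 4 ratios 0.657), and it was 0.24 without control replicate 1 and -0.76 without control replicate 4.

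**Figure D2:**
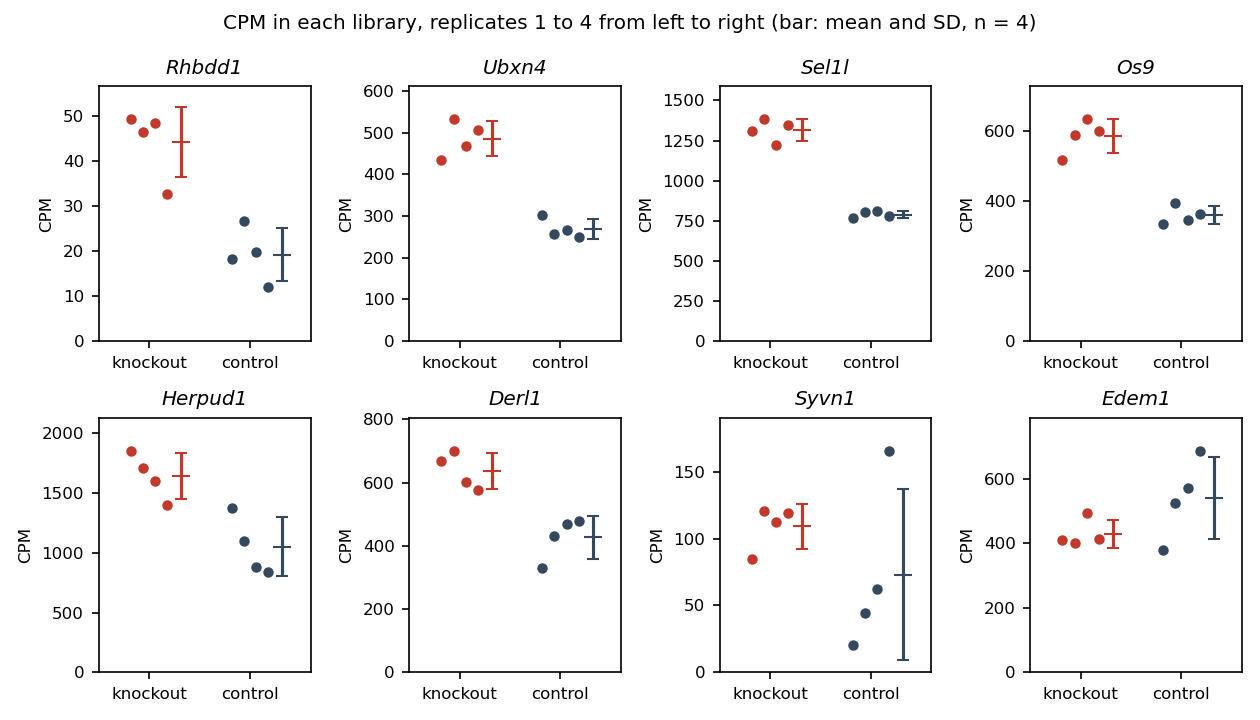
CPM of the 6 called genes and of Syvn1 and Edem1 in each library, knockout replicates at the left and control replicates at the right of each panel; the bars give the mean and SD (n = 4). The called genes separate the groups, whereas the control libraries of Syvn1 run from 20.2 to 166 CPM and enclose its knockout libraries.

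Herpud1 encodes an ER membrane protein that gathers SYVN1 complexes and is induced by ER stress. It gave 1853, 1707, 1600.1 and 1400.2 CPM in the 4 knockout libraries, against 1377, 1102, 885 and 839 CPM in the 4 control libraries. The lowest knockout library, at 1400.2 CPM, stood just above the highest control library, at 1377 CPM. The rise was 0.64 ± 0.17 on the log2 scale (SE, edgeR adjusted p = 0.0323). The call was lost without knockout replicate 1, 2 or 3 or control replicate 2 or 3, with adjusted p of up to 0.119. Its window, printed above, holds a CARE core as well, and no other of the 27 ERAD genes with a window had an ERSE-II match.

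Herpud2, its relative, was counted only a few times, with 44, 47, 35 and 32 counts in the 4 knockout libraries, against 26, 27, 15 and 48 counts in the 4 control libraries. Fam8a1, which encodes a cofactor of SYVN1, was similarly low, with 25, 26, 20 and 40 counts in the 4 knockout libraries, against 50, 27, 23 and 32 counts in the 4 control libraries. Neither passed, with log2 fold changes of 0.51 ± 0.39 and -0.28 ± 0.42.

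The derlins are membrane proteins of the rhomboid family that help to carry substrates out of the ER. Derl1 gave 667, 700.4, 601 and 577 CPM in the 4 knockout libraries, against 331, 431, 468 and 479 CPM in the 4 control libraries. The groups did not overlap, and control replicate 1 was the lowest library. On the log2 scale the rise was 0.58 ± 0.15 (SE, edgeR adjusted p = 0.0309). The call was lost without knockout replicate 1, 2 or 3 or control replicate 2 or 3 (adjusted p up to 0.136). It was also lost when the replicate number was added to the edgeR fit as a block (adjusted p = 0.0587).

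Derl2 gave 123, 131, 174 and 121 CPM in the 4 knockout libraries, against 154, 116, 134 and 92.1 CPM in the 4 control libraries, and the groups overlapped (log2 fold change 0.15 ± 0.18). It shares 231 exon bases with Mis12 on the opposite strand. Derl3 gave 163, 162, 156 and 200.1 CPM in the 4 knockout libraries, against 95.2, 129, 151 and 179 CPM in the 4 control libraries. The control libraries of Derl3 spread more widely than those of the knockout and enclosed 3 of them, with a log2 fold change of 0.29 ± 0.18 (adjusted p = 0.432).

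The log2 ratio of Derl1 to Derl2 was 2.43, 2.41, 1.79 and 2.25 in the 4 knockout libraries, against 1.10, 1.89, 1.80 and 2.37 in the 4 control libraries. The groups overlapped, and the mean difference of 0.43 did not pass (exact two-sided permutation p = 0.257, adjusted 0.419). Derl1 is thus not shown to differ from Derl2 in its change, and it was not tested against Derl3.

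Among the membrane proteases of the pathway, Rhbdd1 had the largest estimate of all 34 genes. It encodes a rhomboid protease that cuts ubiquitinated membrane proteins for disposal. It gave 49.3, 46.4, 48.5 and 32.7 CPM in the 4 knockout libraries, against 18.3, 26.6, 19.8 and 12.1 CPM in the 4 control libraries. All knockout libraries lay above all control libraries, and replicate 4 was the lowest library in both groups. The log2 fold change was 1.21 ± 0.24 (SE, edgeR adjusted p = 0.00591). These values rest on 367, 323, 370 and 272 counts in the 4 knockout libraries, against 130, 165, 142 and 124 counts in the 4 control libraries. The gene spans bases 82316452 to 82445366 of chromosome 1 (plus strand), with no overlapping exon of another gene.

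Hm13 encodes signal peptide peptidase, which cleaves leftover signal peptides in the membrane. It gave 1568, 1631, 1742 and 1421 CPM in the 4 knockout libraries, against 1310.3, 1379.9, 1342 and 1377 CPM in the 4 control libraries. The groups did not overlap, but the log2 fold change of 0.23 ± 0.12 did not pass (adjusted p = 0.344). It shares 760 exon bases with a long non-coding RNA gene on the opposite strand.

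The other ligases, conjugating enzymes and linkers of the membrane step did not pass. Among the ligases, March6 ranged over 58.8 to 72.6 CPM in the knockout and 28.9 to 68.4 CPM in the control (log2 fold change 0.38 ± 0.22) and Rnf139 over 12.7 to 18.5 CPM in the knockout and 18.4 to 25.3 CPM in the control (-0.44 ± 0.21). Rnf5 was low, at 3.16 to 9.31 CPM in the knockout and 3.71 to 8.47 CPM in the control (-0.21 ± 0.38). The estimates for these ligases thus point both ways.

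The ubiquitin-conjugating enzymes of the ER, which supply ubiquitin to the ligases, are encoded by Ube2j1, Ube2j2 and Ube2g2, and Aup1 encodes the protein that recruits the last of these. Ube2j1 ranged over 615 to 774 CPM in the knockout and 716 to 786 CPM in the control, with a log2 fold change of -0.15 ± 0.13. Ube2j2 ranged over 71.3 to 78 CPM in the knockout and 52.5 to 78.1 CPM in the control, with 0.26 ± 0.16. The control maximum of Ube2j2 was in control replicate 4, and the 3 other control libraries lay below all knockout libraries. Ube2g2 ranged over 65.8 to 88.3 CPM in the knockout and 22.5 to 96.3 CPM in the control, with 0.41 ± 0.31; control replicate 1 was its lowest library and control replicate 4 its highest. Aup1 ranged over 334 to 453 CPM in the knockout and 279 to 398 CPM in the control, with 0.18 ± 0.15. On the opposite strand Aup1 shares 753 exon bases with Htra2 and Rnf139 1140 with Tatdn1, and on the same strand Rnf139 shares 197 and Ube2g2 166 with predicted genes, so their read assignment is uncertain.

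Vimp and Selk encode the selenoproteins S and K, membrane proteins that tie the derlins to the VCP ATPase. Vimp gave 4428, 3137, 2832 and 2850.3 CPM in the 4 knockout libraries, against 2842, 2684, 2239.5 and 2066 CPM in the 4 control libraries. Knockout replicate 1 was far above the others, while knockout replicate 3 stood just under control replicate 1, and the log2 fold change of 0.43 ± 0.17 did not pass (adjusted p = 0.171). Selk ranged over 115 to 130.4 CPM in the knockout and 55.8 to 159.9 CPM in the control, and control replicates 1 and 4 were its lowest and highest libraries. Selk did not pass (0.30 ± 0.25), but leaving out control replicate 4 gave 0.63 and a call (adjusted p = 0.0454).

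In cytosolic extraction, a membrane anchor of VCP rose while the ATPase itself did not pass. Ubxn4 encodes an ER membrane protein with a UBX domain, which binds VCP and holds it at the membrane. It gave 435, 533, 469 and 507 CPM in the 4 knockout libraries, against 303, 258, 266 and 249 CPM in the 4 control libraries. The groups were widely separated. The log2 fold change was 0.85 ± 0.13 (SE, edgeR adjusted p = 0.00106), the smallest adjusted p of the 34 genes. The gene spans bases 128243964 to 128279378 of chromosome 1 (plus strand), with no overlapping exon of another gene.

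Ubxn8 and Faf2 encode other UBX proteins that anchor VCP. Ubxn8 ranged over 29.9 to 38.7 CPM in the knockout and 18.2 to 51 CPM in the control, and control replicates 1 and 4 were its highest and lowest libraries, the reverse of Syvn1 (log2 fold change 0.04 ± 0.26). Faf2 ranged over 41.1 to 53.1 CPM in the knockout and 53 to 62.5 CPM in the control, with a log2 fold change of -0.26 ± 0.16. No test set these genes against Ubxn4.

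Vcp gave 2585, 1908, 1949.8 and 1432 CPM in the 4 knockout libraries, against 1912, 1925, 1536 and 1769 CPM in the 4 control libraries. Knockout replicates 1 and 4 marked the extremes of all 8 libraries, and the log2 fold change was 0.14 ± 0.17 (adjusted p = 0.731). Vcp shares 352 exon bases with 1700022I11Rik on the opposite strand.

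Ufd1l and Nploc4 encode the paired cofactor through which VCP grips ubiquitinated proteins. Ufd1l gave 42.4, 47.9, 45.5 and 44.6 CPM in the 4 knockout libraries, against 33.3, 32.4, 39.3 and 51.2 CPM in the 4 control libraries. Nploc4 gave 83.8, 95.8, 79.7 and 72.9 CPM in the 4 knockout libraries, against 52.8, 74.9, 53.6 and 60.3 CPM in the 4 control libraries. For Ufd1l the groups overlapped through control replicate 4, and for Nploc4 through control replicate 2. The log2 fold changes were 0.20 ± 0.18 (adjusted p = 0.62) and 0.46 ± 0.16 (adjusted p = 0.132; unadjusted p = 0.013). Inside a library there were 0.501 to 0.613 Ufd1l counts per Nploc4 count in the knockout and 0.435 to 0.85 in the control. The mean log2 difference of -0.23 did not pass (exact two-sided permutation p = 0.314, adjusted 0.419). Ufd1l shares 209 exon bases with Cdc45 on the opposite strand.

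**Figure D3:**
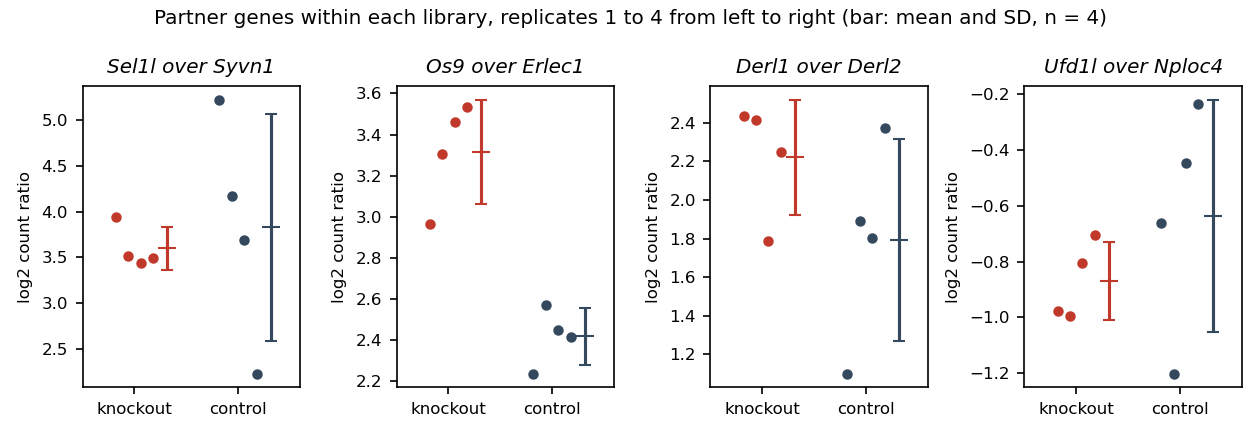
Log2 ratio of the counts of partner genes inside each library, with 2 counts added to each, knockout at the left and control at the right of each panel; bars give the mean and SD (n = 4). For Os9 over Erlec1 the knockout libraries lie at 2.96 to 3.53 and the control libraries at 2.24 to 2.57, while the groups overlap for the other 3 ratios.

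The remaining extraction genes act downstream of or beside VCP. Rad23b, which encodes a shuttle to the proteasome, ranged over 483 to 539 CPM in the knockout and 321 to 564 CPM in the control (log2 fold change 0.17 ± 0.17). Ube4b, which encodes an enzyme that lengthens ubiquitin chains, ranged over 64.1 to 85.1 CPM in the knockout and 39.9 to 103 CPM in the control (0.15 ± 0.23). Ngly1, which encodes the enzyme that removes sugar chains in the cytosol, ranged over 13.2 to 17.3 CPM in the knockout and 6.74 to 24.5 CPM in the control (0.21 ± 0.35). In each of these 3 genes control replicate 1 was the lowest control library and control replicate 4 the highest, and the control libraries enclosed those of the knockout.

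The control libraries spread more widely than the knockout libraries, among ERAD genes as among all genes. The median coefficient of variation over the 34 genes was 12.2% in the knockout and 21.8% in the control, and it was larger in the control for 24 of them; over all genes tested the medians were 17.5% and 27.4%, and it was larger in the control for 7079 of 9904. Control replicate 1 was the lowest control library for 18 of the 34 genes and control replicate 4 the highest for 17. Between these libraries the level in control replicate 4 was higher for Syvn1 by 3.02, for Ube2g2 by 2.09, for Ngly1 by 1.82, for Edem2 by 1.68 and for Selk by 1.51 on the log2 scale. It differed by 0.02 for Sel1l, by 0.11 for Os9 and by -0.28 for Ubxn4. A difference of over 1 on this scale in either direction was found for 9 of the 34 genes (26.5%) and for 28.8% of all genes tested. Without both libraries 7 of the 34 genes were higher and 0 lower, where 4.26% of genes were higher and 4.5% lower, and Syvn1 joined the called 6.

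**Figure D4:**
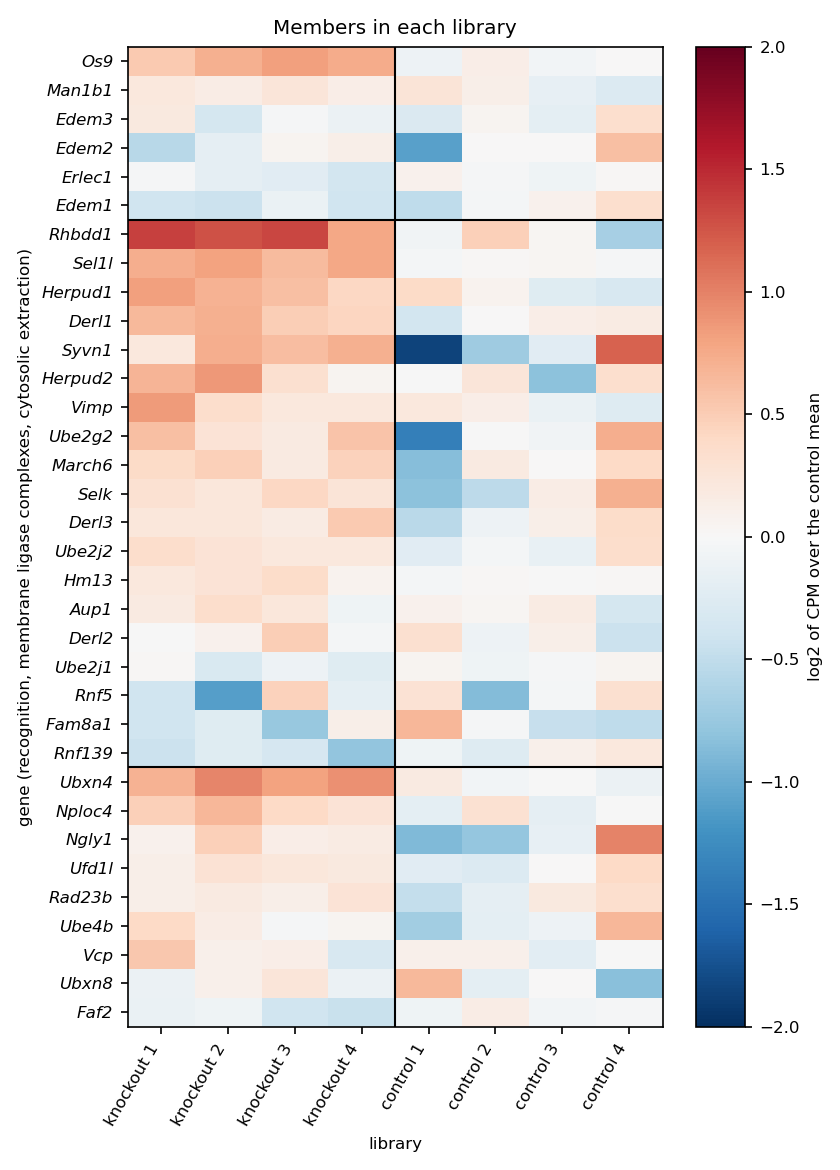
Log2 of the CPM in each library over the control mean of the gene, with knockout libraries in the left block and control libraries in the right block; genes run by step and, within a step, by fold change. Os9, Sel1l and Ubxn4 are raised evenly over the knockout libraries and flat over the control libraries, whereas Syvn1, Ube2g2 and Ngly1 change sign between control replicates 1 and 4.

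Of 66 other genes of the pathway, listed from their known function but with earlier results of these data known, 64 were tested. None rose, against 2.54% of all genes tested, and 4 fell, which is 6.25% against 3.19%. At an unadjusted p under 0.05 there were 10 higher and 8 lower of the 64, where 8.3% of all genes tested were higher and 9.72% lower. DESeq2 called 0 higher and 4 lower, where it called 3.13% and 4.25% of all genes. With limma-voom 3 were higher and 6 lower, where 4.76% and 5.89% of all genes were. The median log2 fold change was 0.04.

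Among 14 lumenal factors, the chaperones and enzymes that prepare substrates, 2 fell, or 14.3%, where 3.19% of all genes tested fell. Sdf2l1, which encodes a partner of the BiP chaperone cycle, averaged 99.5 ± 10.6 CPM in the knockout and 179.7 ± 15.4 CPM in the control (SD, n = 4 each; log2 fold change -0.85 ± 0.14, edgeR adjusted p = 0.00159). Man1a2, which encodes a mannosidase of the early secretory pathway, averaged 89.8 ± 15.3 CPM in the knockout and 148 ± 26.5 CPM in the control (-0.72 ± 0.17, adjusted p = 0.0212). Its call was lost without knockout replicate 1 or 2 or control replicate 2 or 3. Hspa5, which encodes BiP itself, ranged over 13968 to 17209 CPM in the knockout and 11389 to 14844 CPM in the control and did not pass (0.22 ± 0.13). Of the 14 lumenal factors, 5 had a fitted log2 fold change above 0. The largest was that of Dnajb9, which did not pass (0.91 ± 0.34, edgeR adjusted p = 0.162). Dnajb9 ranged over 42.6 to 50.5 CPM in the knockout and 9.97 to 46.5 CPM in the control, and the groups overlapped through control replicate 4.

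Among 20 tested genes of other ER ligases and their partners, 2 fell, or 10%, where 3.19% of all genes tested fell. Insig1, which encodes a sterol-sensing ER membrane protein, averaged 119 ± 11.7 CPM in the knockout and 311 ± 42.8 CPM in the control (-1.39 ± 0.15, edgeR adjusted p = 4.35e-05). Ubac2, which encodes an ER membrane protein with a ubiquitin-associated domain, averaged 38.3 ± 5.73 CPM in the knockout and 62.9 ± 8.34 CPM in the control (-0.71 ± 0.17, adjusted p = 0.0232). Its call was lost without knockout replicate 2 or 3 or control replicate 2 or 3. Of 30 tested VCP cofactors, deubiquitinases and shuttle factors none passed in either direction, with 6 higher and 2 lower at an unadjusted p under 0.05, a cut that 8.3% of all genes tested passed upward and 9.72% downward. The smallest p among them was that of Plaa, a VCP cofactor gene (0.67 ± 0.22, adjusted p = 0.0878), followed by Dnajb2, a gene of the cytosolic co-chaperones (0.51 ± 0.18, 0.125).

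The regulators of these genes did not move as a block. Ddit3, the ER stress factor CHOP, rose, with 491, 639, 496 and 406 CPM in the 4 knockout libraries, against 246, 191, 171 and 91.9 CPM in the 4 control libraries (log2 fold change 1.54 ± 0.24, edgeR adjusted p = 0.00116). Atf6b, a relative of Atf6, fell, with 302, 264, 278 and 307 CPM in the 4 knockout libraries, against 420.3, 501, 469 and 481 CPM in the 4 control libraries (-0.70 ± 0.13, adjusted p = 0.0038). Atf4 had a log2 fold change of 0.72 ± 0.22 and did not pass (adjusted p = 0.0787). It passed with DESeq2 (0.0322), limma-voom (0.000341) and a replicate block (0.0283). Atf4 also passed when control replicate 1 was left out (1.01, 0.000382), alone or together with control replicate 4 (0.000398). In the other 13 of the 18 alternative fits it did not pass. Atf6, Xbp1, the XBP1-activating sensor gene Ern1 and the PERK gene Eif2ak3 had log2 fold changes of 0.09 ± 0.12, -0.39 ± 0.37, -0.01 ± 0.35 and 0.09 ± 0.21, and none passed. Xbp1 ranged over 186 to 240 CPM in the knockout and 106 to 559 CPM in the control. Its log2 fold change ran from -0.665 to 0.169 over the 18 alternative fits. These are transcript levels, and the activity of the encoded proteins was not measured.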

How the data were processed

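The deposited files hold raw read counts per gene symbol, 1 file per library, not normalized by the authors. Per the labels' protocols, libraries were made with the QuantSeq 3′ FWD kit from 500 ng of RNA of sorted cells. The submitters' processing notes name mm10 as the build and, as tools, HTSeq 0.6.1, TopHat2 2.1.1, SAMtools 1.3.1 and BWA 0.7.12. Neither tool roles nor annotation nor strand use in counting is given in the sources used here. Counts may include PCR copies. Replicate libraries differed by more than counting noise (chi-square per degree of freedom 6.60 to 94.2). Totals ran from 5882912 to 10066661 counts.

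Genes were filtered with filterByExpr (minimum count 10, minimum total 15), scaled with TMM and tested with edgeR 4.0.16 (R 4.3.3), a robust quasi-likelihood test with group as the only term, two-sided; p-values were adjusted across the 9904 genes that remained, and calls were made at 0.05. A standard error is |log2 fold change| over the root of its F statistic. On simulated data this test recovered 9.88% of 1.5-fold, 63.3% of 2-fold and 94.9% of 4-fold changes, with 3 false calls among 105. A gene that did not pass is thus not shown to be unchanged. Alternatives were DESeq2 1.42.0, limma-voom (limma 3.58.1) with sample weights, other scalings and filters, a fit without robust estimation, a replicate block and leaving out libraries. Partner ratios used 2 added counts and exact permutation tests. The members, steps, lists and pairs were chosen with earlier results of these data known. Values in every library are given for members past the threshold, the 2 of each step with the smallest p, and a set of core genes. Of the other pathway genes those past the threshold are named, and Plaa, Dnajb2 and Dnajb9 were named after their values were seen. Of the members, Derl1, Erlec1, Rnf5, Rnf139, Aup1, Ube2g2 and Ubxn8 had no promoter window in the table used. The older symbols Ubl4, Igj and Emr1 were listed beside the current ones and were not used here. Positions are from GENCODE M21 (GRCm38, the mm10 build).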

Additional observations from a re-analysis of the deposited data

Results flagged for a closer look

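In a group of 4 libraries a value was flagged where its gap to the nearest other value exceeded Dixon's 95% critical share of the range of the group. Chance flags about 1 in 20 groups, and 76 groups were examined: 34 genes and 4 partner ratios, in knockout and control. There were 4 flags, all in the knockout. Edem1 stood at 495 CPM in knockout replicate 3, against 401 to 412 CPM in the other knockout libraries. Derl3 stood at 200 CPM in knockout replicate 4, against 156 to 163 CPM. Ngly1 stood at 17.3 CPM in knockout replicate 2, against 13.2 to 13.8 CPM. The log2 ratio of Sel1l to Syvn1 stood at 3.94 in knockout replicate 1, against 3.44 to 3.52. The causes were not tested.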

How the results depend on the processing

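Of the 18 alternatives of the gene fit, none reversed a called gene, and Rhbdd1, Ubxn4, Sel1l and Os9 kept their calls under all 18. The count of higher ERAD genes, 6, was 7 with limma-voom and without control replicates 1 and 4, 5 with a replicate block (2.45% of all genes; Derl1 was lost, adjusted p = 0.0587, and Syvn1 was at 0.96 on the log2 scale, adjusted p = 0.0952) and 4 to 8 without any 1 library (1.35% to 4.09% of all genes); that of lower ones, 0, was 0 to 1. The 568 calls over all genes became 1054 with limma-voom, 901 without control replicates 1 and 4, 270 to 892 without any 1 library and 509 with a replicate block. Of the other pathway genes, 0 higher became 3 with limma-voom, 1 without a filter on low counts, 2 with a replicate block, 2 without control replicates 1 and 4 and 0 to 2 without any 1 library; 4 lower became 6 with limma-voom, 5 without control replicates 1 and 4 and 2 to 5 without any 1 library. Over all genes 4.76% were higher and 5.89% lower with limma-voom, and 4.26% and 4.5% without control replicates 1 and 4. The causes were not tested. The alternatives of the 4 partner ratios say nothing about their stability, since 4 against 3 libraries cannot go below an exact p of 0.0571 and a replicate block of 4 pairs not below 0.125 (adjusted p 0.5 to 0.625); a single ratio at the smallest exact p of 0.0286 reaches 0.114 after adjustment over 4. Whether the replicate numbers pair the libraries is not stated in the labels and is not settled by these values. Deviations of same-numbered libraries from their group means correlated across genes at 0.044, -0.003, 0.042 and 0.066. Those of differently numbered libraries correlated at -0.117 to 0.069, and not every library correlated best with its own number. Herpud2, Fam8a1 and Rnf5 had at most 87 counts in any library, and whether depth or the spread between libraries sets their precision was not tested.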
